A study of Arabidopsis thaliana with 9 samples.

Results

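Siliques of Arabidopsis thaliana plants labelled scl15 knockout were compared with siliques of wild type plants, as 3 knockout against 3 wild type libraries out of 9 in the series. The libraries were chosen by the genotype in their labels, and all genes in the table were included. A silique is the seed pod with its developing seeds, here collected 12 days past anthesis from greenhouse plants held at 16 to 22 degrees Celsius. The wild type is of the Columbia background, and the knockout is described as having no functional SCL15 gene. The labels give neither the allele nor the number of plants in a sample. The other 3 libraries come from plants with SCL15 behind the Napin promoter, a promoter active in seeds. They entered the estimate of the spread, and a few of their values are set beside the knockout's, against the same wild type libraries.

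SCL15 belongs to the GRAS family of plant transcription regulators, and SCL15 is known to act with the histone deacetylase HDA19 to hold back seed maturation genes in seedlings. During maturation an Arabidopsis embryo first fills with storage protein and oil. It then gains tolerance to drying under abscisic acid (ABA), as late embryogenesis abundant (LEA) proteins and small heat shock proteins accumulate and chlorophyll is broken down. The regulators LEC1, L1L and FUS3 are known from the earlier phase, and ABI5 and HSFA9 from the later one. A silique also holds seed coat, endosperm and the green pod wall, so each value is an average over these tissues.

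Levels are in TPM, the share of a library's transcripts corrected for gene length and scaled to a total of 1000000, given for replicates 1, 2 and 3 in that order. A gene rose or fell where limma on log2(TPM + 1) gave a Benjamini-Hochberg adjusted p under 0.05 over all genes tested. Fold changes are on that log2 scale, knockout over wild type, with their standard error (SE), and understate the change of low genes. Between 20707 and 21855 genes were above 0 TPM in these 6 libraries. TPM keep no depth, so the number of reads behind a value is not known. Knockout replicate 3 lay farthest from the wild type mean for 51% of the genes that rose by 2-fold or more and for 53.9% of those that fell that far.

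Of 16555 genes tested, 2564 (15.5%) changed in the knockout, with 1519 (9.18%) higher and 1045 (6.31%) lower. Each count of list or family members below is to be read beside these shares. Changes of 2-fold or more were found for 388 higher (2.34%) and 460 lower (2.78%) genes, and above 3 on the log2 scale for 10 higher and 26 lower genes. The groups did not overlap for 3627 genes (21.9%) with the knockout higher and for 1837 (11.1%) with it lower. The split depended on scaling, with 59.2% of calls higher as deposited, 43.4% (991 higher, 1291 lower) after median-ratio scaling and 46.3% (1098 higher, 1275 lower) after quantile normalization. The median log2 fold change of all genes tested was 0.10 as deposited and 0.01 in both of these. Leaving out wild type replicate 1 gave 1700 changed genes, and leaving out knockout replicate 1 gave 1707.

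Large falls were more frequent than large rises among genes abundant in wild type. Among 1008 genes above 100 TPM in wild type, 65 fell and 15 rose by 2-fold or more. Choosing genes by their wild type level favours falls, because genes above 100 TPM only in the knockout are left out. Genes that fell made up 9.76% ± 1.04 of all TPM in wild type and 4.91% ± 0.433 in the knockout (SD, n = 3). Genes that rose made up 7.49% ± 0.450 and 12.86% ± 0.767. None of 71 tested plastid-encoded genes was past limma's threshold, and 4 higher and 7 lower ones had an unadjusted p under 0.05. Of the 204 changed genes named here, 150 kept the call under each of the 16 alternatives that tested them, and the other 54 are named in the closing section.

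**Figure D1:**
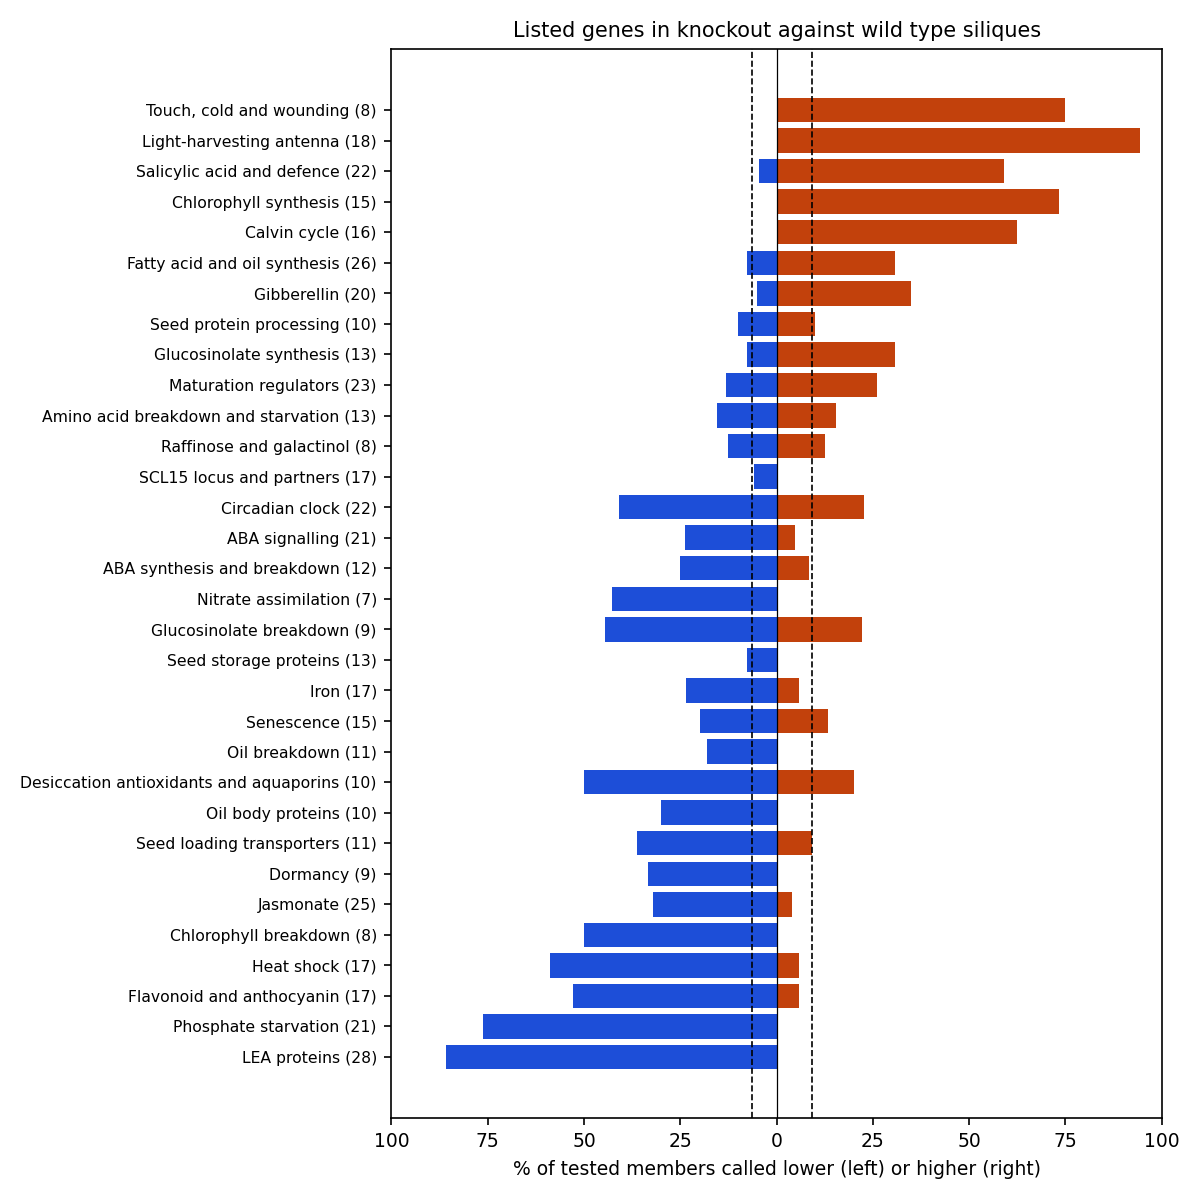
Share of the tested members of each gene list that were called higher (right) or lower (left) in the knockout, in percent, for lists with 7 or more tested members (number in brackets), ordered by median log2 fold change. The dashed lines mark 9.18% higher and 6.31% lower, the shares over all genes tested; LEA, phosphate starvation and heat shock genes lie far to the left of them and light-harvesting, touch and chlorophyll synthesis genes far to the right.

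SCL15 (AT4G36710) was measured first, as a check of the label. It stood at 14.4, 16.2 and 10.7 TPM in wild type and 6.31, 6.39 and 4.82 TPM in the knockout. All knockout libraries lay below all wild type libraries, but the transcript was still there at 42.4% of the wild type mean (log2 fold change -1.10, SE 0.15, adjusted p = 1.9e-04). An exact two-sided permutation test gave p = 0.1, the smallest that 3 against 3 libraries allow. In TAIR10.1 the gene is a single exon at chr4:17305758-17307648 on the plus strand. The labels do not place the disruption in it, so how much of the measured exon is intact is not known.

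The gene just downstream, HVA22K (AT4G36720, an HVA22-like protein), fell further than SCL15 itself. Its levels were 9.77, 10.5 and 7.49 TPM in wild type and 0.362, 0.988 and 0.158 TPM in the knockout, so every knockout library was below 1 TPM (log2 fold change -2.80, SE 0.21, adjusted p = 1.4e-06). HVA22K is read in the same direction as SCL15 and starts 60 bases after the annotated end of SCL15, and the interval between them reads as follows.
SCL15 to HVA22K (TAIR10.1 chr4:17307649-17307708, plus strand): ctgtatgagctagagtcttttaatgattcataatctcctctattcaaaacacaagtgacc
HVA22K shares 256 bases at its far end with GBF1, a G-box binding factor on the opposite strand, and the sources used here do not say whether counting used strand. GBF1 rose, from 11.2, 12.8 and 13.6 to 19.3, 16.8 and 21.0 TPM (0.57), but not without wild type replicate 1, knockout replicate 1 or knockout replicate 3. The sugar alcohol transporter gene PLT6 rose (0.93) on the other side. In all, 3 of the 10 neighbouring genes changed (30%), as did 10 of the nearest 40 (25%) and 20 of the nearest 100 (20%), against 15.5% of all genes. Of 17 tested genes listed as SCL15, its relatives and its chromatin partners, only SCL15 was past the threshold, and 1 of the other 16 was higher at an unadjusted p under 0.05. HDA19 was at 43.3, 43.2 and 39.4 TPM in wild type and 48.3, 52.7 and 45.1 TPM in the knockout (adjusted p = 0.269).

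**Figure D2:**
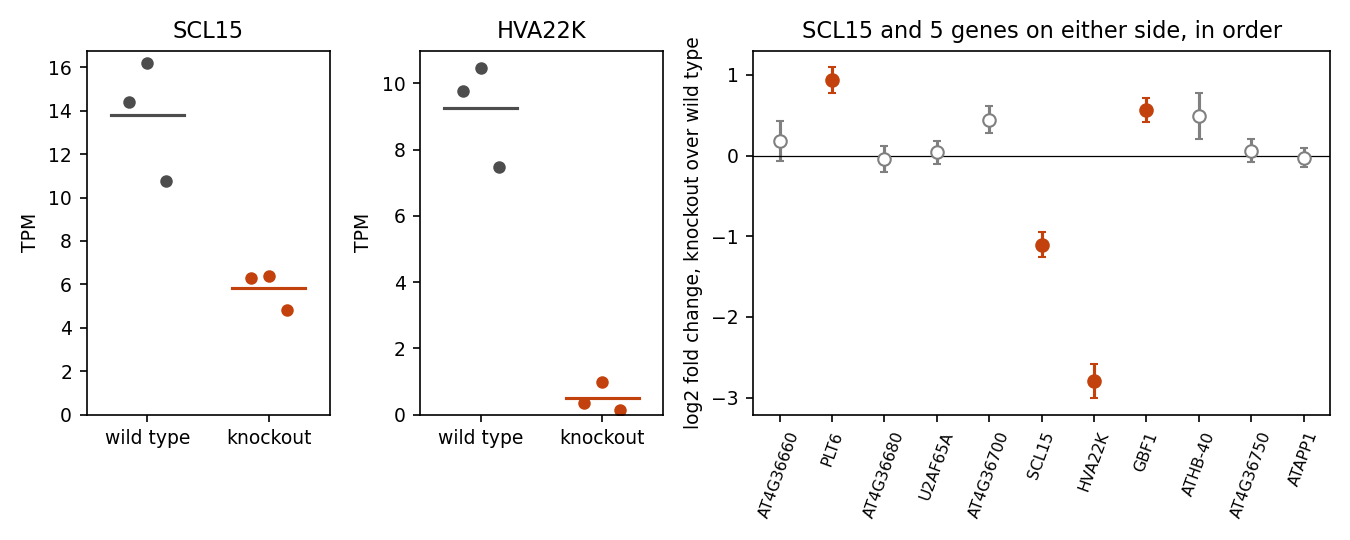
TPM of SCL15 and HVA22K in each library (points; line, mean of 3) and, on the right, log2 fold change with its SE for SCL15 and 5 annotated genes on either side in genome order (filled, past the threshold; open, not past). HVA22K fell by more than SCL15, and all 3 of its knockout libraries lie under 1 TPM.

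LEA proteins, hydrophilic proteins that accumulate in drying seeds, gave the list with the most falls. In whole siliques, fewer cells of a type and less RNA per cell cannot be told apart, for these and all other genes. Of 28 members, all tested, 24 fell and none rose, with a median log2 fold change of -1.64 against 0.10 over all genes. EM6 and EM1, group 1 LEA proteins, fell to very different depths. EM6 stood at 389, 496 and 321 TPM in wild type and 16.5, 24.1 and 12.5 TPM in the knockout (log2 fold change -4.45, SE 0.20, adjusted p = 2.3e-08). EM1 stood at 437, 568 and 367 TPM in wild type and 68.5, 111 and 42.9 TPM in the knockout (log2 fold change -2.69, SE 0.26, adjusted p = 1.1e-05), so it was the higher of the pair in every library and kept the larger share of its wild type level. The LEA-domain genes AT3G53040 (-3.14) and AT2G42560 (-2.85) lay between them. The dehydrin RAB18, the LEA transcript of highest level, went from 2406, 2881 and 1798 to 550.1, 869 and 453 TPM (-1.95). The groups did not overlap for any of these 5 genes.

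Not every LEA gene followed. M17 stood at 41.5, 31.6 and 39.4 TPM in wild type and 38.0, 44.8 and 31.9 TPM in the knockout, with overlapping groups, while M10 fell from 103, 132 and 83.0 to 4.18, 13.2 and 2.64 TPM (-4.03). ECP63 (-0.43), LEA14 (-0.42), LEA4-1 (-0.56) and AT3G02480 (-0.49) fell by less than 1 on the log2 scale. In the Napin line, compared with the same wild type libraries, EM6 was at 1.10, RAB18 at 0.87 and AT3G53040 at 1.19 on the log2 scale, all higher. Of all 16555 genes tested, 278 were higher and 3871 lower in that line. Leaving out 1 library kept 20 to 22 of the 24 falls, with 20 when knockout replicate 1 was omitted.

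The ABA-responsive element, searched as ACGTGNC on both strands in the 250 bases before each gene's annotated start, was present before 23 of the 28 LEA genes (82.1%), 20 of the 24 that fell among them. It was present before 8.57% of 27437 protein-coding genes and 10.3% of genes tested, and before 17.1% of genes that fell by 2-fold or more. Among rises it was present before 6.56% of those of 2-fold or more but 9.9% of all, against 9.91% of genes not past the threshold. The G-box, CACGTG, overlaps with it in letters. It was present before 16% of falls and 4.99% of rises of 2-fold or more, against 6.49% of all protein-coding genes and 8.05% of genes tested. The promoters of EM6, EM1 and AT4G36600 in TAIR10.1 are shown because these LEA genes fell by 2.69 or more on the log2 scale, with the matches in capitals.
EM6 (chr2:16780369-16780618, minus strand): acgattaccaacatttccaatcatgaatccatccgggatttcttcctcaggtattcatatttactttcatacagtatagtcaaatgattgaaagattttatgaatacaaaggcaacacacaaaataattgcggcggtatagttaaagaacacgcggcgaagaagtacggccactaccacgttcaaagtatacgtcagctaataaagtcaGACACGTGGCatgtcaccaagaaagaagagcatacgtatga
EM1 (chr3:19214472-19214721, plus strand): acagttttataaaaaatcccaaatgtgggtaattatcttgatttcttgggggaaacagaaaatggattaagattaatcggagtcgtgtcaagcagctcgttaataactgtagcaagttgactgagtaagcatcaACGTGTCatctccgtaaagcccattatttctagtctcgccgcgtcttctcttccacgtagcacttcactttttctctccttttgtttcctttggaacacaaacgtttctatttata
AT4G36600 (chr4:17263314-17263563, plus strand): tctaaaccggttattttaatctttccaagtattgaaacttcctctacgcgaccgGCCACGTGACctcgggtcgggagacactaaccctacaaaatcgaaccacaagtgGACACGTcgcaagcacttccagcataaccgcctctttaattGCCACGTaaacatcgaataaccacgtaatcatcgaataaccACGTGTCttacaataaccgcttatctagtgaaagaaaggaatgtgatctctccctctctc
EM6 holds a pair of overlapping matches on opposite strands, EM1 holds 1 match and AT4G36600 holds 5. Matches are a description of these windows, not evidence of binding.

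The storage proteins did not move with the LEA genes. Of 13 storage protein genes, 1 fell, the cruciferin-like CRU2 (AT1G03890, from 2071, 1982 and 2025 to 1429, 1208 and 1341 TPM, -0.61), and the other 12 were not past the threshold. Summed, they made up 31.36% of all TPM in wild type and 32.54% in the knockout. CRA1, a cruciferin, stood at 34384, 31817 and 33755 TPM in wild type and 30679.9, 24719 and 27202 TPM in the knockout, with wild type above the knockout in every library but an adjusted p of 0.437. Single SESA values are uncertain because these genes are close copies of each other. The RY element, CATGCA on either strand, was present before 11 of the 13 storage genes (84.6%) and 7 of the 28 LEA genes (25%), against 8.43% of protein-coding genes. Over all genes it was present before 13.4% of falls and 12.3% of rises of 2-fold or more, against 7.72% of genes tested. The CRA1 promoter is shown for contrast, with the RY letters in capitals.
CRA1 (chr5:17758337-17758586, minus strand): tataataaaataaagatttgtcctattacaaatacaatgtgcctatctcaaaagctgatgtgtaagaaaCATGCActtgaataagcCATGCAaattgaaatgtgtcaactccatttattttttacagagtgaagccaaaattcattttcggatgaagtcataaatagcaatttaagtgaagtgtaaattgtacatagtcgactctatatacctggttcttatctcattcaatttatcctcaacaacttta
Of 10 oil body genes, OLEO4, CLO2 and HSD5 fell by 0.40 to 0.79 on the log2 scale, and leaving out any one of wild type replicate 1, wild type replicate 2 or knockout replicate 3 left 1 of these calls. Among 10 aquaporin and desiccation antioxidant genes, the seed tonoplast aquaporins TIP3;1 (-0.71) and TIP3;2 (-0.53), the drought-induced TSPO (-1.77), the peroxiredoxin PER1 (-0.42) and the catalase CAT1 (AT1G20630, -0.40) fell. The vegetative aquaporins TIP1;1 (0.56) and TIP1;2 (0.34) rose, and leaving out any single library left 1 of this pair. Of the 5 falls, 2 were left when wild type replicate 1 was omitted and 3 when wild type replicate 2 or knockout replicate 1 was.

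Of 20 heat shock genes, 17 were tested, 10 fell and 1 rose, with a median of -0.75. The small heat shock protein HSP17.4 stood at 243, 364 and 206 TPM in wild type and 31.4, 42.5 and 19.6 TPM in the knockout (log2 fold change -3.10, SE 0.24, adjusted p = 1.9e-06). The chaperone HSP70B fell from 65.5, 84.6 and 48.2 to 6.35, 9.89 and 5.48 TPM (-3.03), and the disaggregase HSP101 from 20.9, 22.02 and 19.5 to 9.65, 7.95 and 7.00 TPM (-1.25). These 3 chaperones did not overlap between the groups. MBF1C, a coactivator in the heat response, rose (0.70). HSFA2, a heat stress factor, was at 2.14, 2.59 and 2.26 TPM in wild type and 4.90, 2.72 and 6.21 TPM in the knockout, with an adjusted p of 0.0778. The heat shock element, searched on both strands as 3 neighbouring blocks of GAA and its complement TTC, was present before 3 of the 17 (17.6%) against 0.386% of protein-coding genes. The HSP17.4 promoter is shown because it holds a pair of them, in capitals.
HSP17.4 (chr3:16984868-16985117, minus strand): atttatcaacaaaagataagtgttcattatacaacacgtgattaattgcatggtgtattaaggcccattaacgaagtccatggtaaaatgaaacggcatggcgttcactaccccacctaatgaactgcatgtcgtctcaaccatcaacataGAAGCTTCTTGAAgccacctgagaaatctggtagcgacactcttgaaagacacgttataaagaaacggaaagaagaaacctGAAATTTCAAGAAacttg

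Of 23 tested maturation regulators 3 fell and 6 rose, those that fell including HSFA9 and ABI5 of the later phase and those that rose LEC1, L1L and FUS3 of the earlier. HSFA9, a seed-specific heat stress factor, fell from 7.37, 11.9 and 6.14 to 0.959, 0.757 and 0.882 TPM (log2 fold change -2.30, SE 0.21, adjusted p = 7.5e-06). ABI5, a bZIP factor of ABA response, fell from 22.03, 27.3 and 18.9 to 5.17, 6.96 and 4.03 TPM (log2 fold change -1.91, SE 0.18, adjusted p = 1.0e-05), and SOM, a zinc finger repressor of light-dependent germination, fell too (-1.64). LEC1, an embryo identity factor, rose from 1.58, 1.09 and 2.24 to 6.09, 5.55 and 7.33 TPM (log2 fold change 1.49, SE 0.24, adjusted p = 6.3e-04). The groups did not overlap for HSFA9, ABI5 or LEC1, all below 30 TPM in every library. L1L (0.92), FUS3 (0.77), WRI1 (0.71), NF-YC2 (0.70) and MYB96 (0.62) also rose. These rises were fragile, with 1 of the 6 left when knockout replicate 1 or 3 was omitted, 2 when wild type replicate 2 was, and 3 when wild type replicate 1 was or after median-ratio scaling. ABI3, a B3 factor that acts with these, was at 32.6, 32.0 and 33.8 TPM in wild type and 39.9, 32.0 and 33.2 TPM in the knockout (adjusted p = 0.726). The dormancy gene DOG1 (-0.57) and its relatives DOGL2 (-1.30) and DOGL3 (-0.73) fell, out of 9 listed, and DOGL2 alone was left when wild type replicate 2, wild type replicate 3 or knockout replicate 3 was omitted.

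Of 12 tested genes of ABA synthesis and breakdown, 3 fell (25%) and 1, not described here, rose (8.333%). In ABA synthesis, NCED2, a 9-cis-epoxycarotenoid dioxygenase, stood at 16.5, 19.3 and 12.4 TPM in wild type and 1.08, 0.833 and 0.141 TPM in the knockout (log2 fold change -3.37, SE 0.23, adjusted p = 4.6e-07). Knockout levels were near or below 1 TPM in all 3 libraries. BG1, a glucosidase that frees ABA from its sugar conjugate, fell from 19.9, 20.1 and 14.2 to 2.09, 2.14 and 2.51 TPM (-2.54), and NCED3 fell by less (-0.63). NCED6, with 12.8, 10.4 and 17.3 TPM in wild type and 18.5, 16.5 and 19.8 in the knockout, and NCED9, with 7.12, 7.45 and 7.23 and 7.91, 8.26 and 10.6, were not past the threshold. Of 21 signalling genes, 5 phosphatases fell: AHG1 (-1.73), HAI3 (-1.21), ABI1 (-0.70), AHG3 (-0.44) and ABI2 (-0.44). Without wild type replicate 1, wild type replicate 2 or knockout replicate 3, 3 of the 5 were past the threshold. The receptor PYL7 rose (0.48), and none of 3 tested kinases of the SnRK2 group was past the threshold.

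Most genes listed for the phosphate starvation response fell. Plants short of phosphate are known to switch on transporters, phosphatases and enzymes that replace membrane phospholipids by galactolipids and sulfolipids, under the factor PHR1 and its SPX inhibitors. Of 23 listed genes 21 were tested, 16 fell and none rose, with a median of -1.10. The phosphatase AT1G17710 stood at 27.9, 32.4 and 24.1 TPM in wild type and 0.873, 1.30 and 1.51 TPM in the knockout (log2 fold change -3.71, SE 0.17, adjusted p = 2.3e-08). The transporter PHT1;4 stood at 14.4, 14.9 and 9.19 TPM in wild type and 1.32, 1.90 and 1.34 TPM in the knockout (log2 fold change -2.43, SE 0.21, adjusted p = 5.4e-06). In both genes every knockout library was below 2 TPM and no wild type library below 9 TPM.

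The sensor SPX1 fell from 36.4, 41.8 and 35.3 to 11.8, 11.9 and 11.8 TPM (log2 fold change -1.59, SE 0.13, adjusted p = 2.2e-06), with the 3 knockout libraries almost equal. The phosphatase PS2 (AT1G73010) fell from 69.0, 99.2 and 63.0 to 25.2, 29.5 and 16.5 TPM (-1.67). Of the lipid enzymes, MGD3 (-2.09) and MGD2 (-1.34), which make galactolipid, SQD2 (-1.57) and SQD1 (-0.60), which make sulfolipid, and the phospholipases NPC4 (-1.18), PLDZ2 (-1.10) and NPC5 (-0.87) fell. The noncoding RNA AT4 (AT5G03545, -2.17), the ubiquitin-conjugating enzyme gene PHO2 (-0.72), the acid phosphatase PAP17 (-0.66) and SPX2 (-0.63) fell as well. PHR1, the activator, was at 13.1, 14.2 and 14.6 TPM in wild type and 17.4, 15.2 and 15.5 in the knockout, and the xylem exporter PHO1 at 7.77, 10.9 and 9.57 and 12.9, 12.03 and 9.20, and neither was past the threshold. The 16 falls stood under each of the 3 other scalings, and 13 were left without wild type replicate 2 and 15 without any other single library. In the Napin line, against the same wild type, AT1G17710 (-0.05), SPX1 (0.02) and GDPD1 (0.10) were not past the threshold, and MGD2 (-0.58) and PAP17 (-0.40) fell. Falls were frequent in that line on the deposited scale, with 3871 of all 16555 genes tested lower and 278 higher.

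The PHR1 binding site, searched as GNATATNC on both strands and added after these values were seen, was present before 7 of the 21 tested phosphate genes (33.3%) and before 5.46% of protein-coding genes. Of the 16 that fell 6 held it, PS2, AT4, MGD2, NPC4, PLDZ2 and GDPD1, and so did SPX3, which was not past the threshold. The windows of AT1G17710, PHT1;4 and SPX1 did not hold these letters. GDPD1, a glycerophosphodiesterase, fell from 81.0, 87.4 and 67.3 to 33.2, 30.0 and 42.6 TPM (-1.14) and is shown with PS2, with the matches in capitals.
GDPD1 (chr3:350011-350260, minus strand): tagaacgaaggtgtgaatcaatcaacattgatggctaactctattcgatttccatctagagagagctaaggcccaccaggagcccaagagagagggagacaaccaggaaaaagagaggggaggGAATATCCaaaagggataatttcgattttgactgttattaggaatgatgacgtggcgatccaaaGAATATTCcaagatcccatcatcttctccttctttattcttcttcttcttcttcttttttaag
PS2 (chr1:27466349-27466598, minus strand): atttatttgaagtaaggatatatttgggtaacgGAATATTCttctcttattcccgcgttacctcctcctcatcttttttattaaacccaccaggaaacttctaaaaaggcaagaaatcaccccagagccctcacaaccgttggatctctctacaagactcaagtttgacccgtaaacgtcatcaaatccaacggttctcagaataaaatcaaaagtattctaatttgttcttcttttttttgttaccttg

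**Figure D3:**
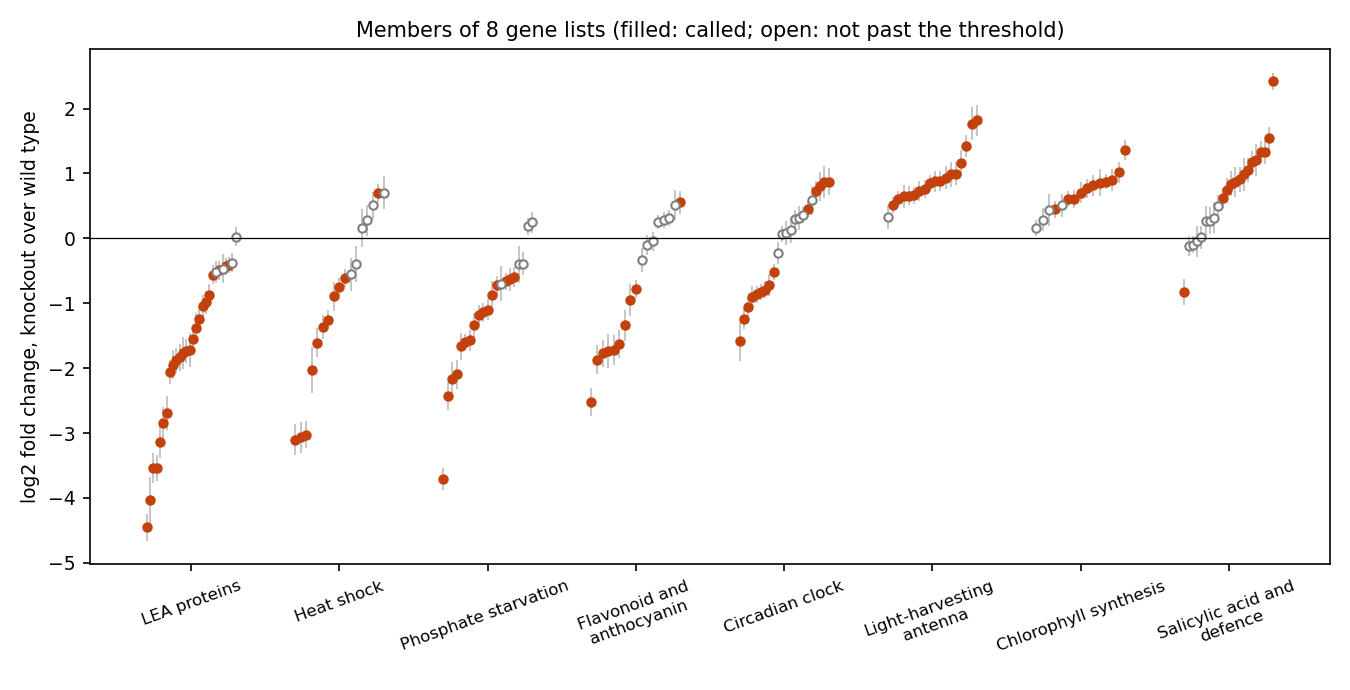
Log2 fold change of each tested member of 8 gene lists, in rank order within a list, with its SE as a grey line; filled points were past the threshold and open points were not. LEA and phosphate starvation members lie below 0 with few exceptions, light-harvesting members lie above 0, and clock genes split in both directions.

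Metal genes changed with a few large falls. Of 17 tested iron genes 4 fell (23.53%) and 1 rose (5.882%), beside 6.31% lower and 9.18% higher over all genes. NAS3, an enzyme of the metal chelator nicotianamine, fell from 13.0, 18.3 and 10.4 to 1.08, 1.13 and 0.406 TPM (log2 fold change -2.98, SE 0.21, adjusted p = 6.9e-07). FER2, the seed ferritin that stores iron, fell from 164, 182 and 137 to 44.4, 64.2 and 50.8 TPM (log2 fold change -1.59, SE 0.15, adjusted p = 8.4e-06), and FER1 from 50.01, 54.3 and 47.4 to 21.3, 17.1 and 22.1 TPM (-1.29). The groups did not overlap in these 3 genes, and BTS, a regulator that limits iron uptake, rose (0.72). Among the largest falls in TPM was the metallothionein MT2B, from 3061, 3121 and 2543 to 1286, 1769 and 1811 (-0.85). PCR1, a cadmium resistance gene, rose from 10.02, 8.65 and 6.57 to 48.0, 76.2 and 50.7 TPM (2.64).

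Light-harvesting genes rose almost without exception. Of 18 antenna genes, 17 rose and LHCB4.3 was not past the threshold, with a median of 0.86. LHCB1.1 stood at 449, 349.7 and 449.9 TPM in wild type and 1165, 1011 and 1169 TPM in the knockout (log2 fold change 1.43, SE 0.17, adjusted p = 5.8e-05). LHCB3, which has no near-identical copy in the list, went from 278, 243 and 319.5 to 495, 471 and 719.8 TPM (0.98), and LHCA4 from 346, 337 and 387 to 646, 626 and 701 TPM (0.88). Every knockout library was above every wild type library in these 3 genes. LHCB1 and LHCB2 copies may share reads, so their single values are uncertain. Of 16 Calvin cycle genes 10 rose, and 6 without knockout replicate 3. Over the whole photosystem family by gene description, 35 of 67 tested genes rose and none fell.

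Chlorophyll synthesis and breakdown genes went in opposite directions. Of 15 tested synthesis genes 11 rose, with a median of 0.70, and of 8 breakdown genes 4 fell, with a median of -0.38. GLK1, an activator of chloroplast genes, stood at 8.90, 8.59 and 10.8 TPM in wild type and 25.3, 22.2 and 29.9 TPM in the knockout (log2 fold change 1.36, SE 0.16, adjusted p = 6.4e-05), and GLK2 was at 39.4, 42.8 and 41.5 and 72.4, 75.8 and 81.2 TPM (0.87). GUN4 (1.02), CHLM (0.90), GUN5 (0.77), CRD1 (0.70) and HEMA1 (0.61), which act in the making of chlorophyll, rose. NYC1, a chlorophyll b reductase, fell from 134, 153 and 126 to 89.8, 83.2 and 64.0 TPM (-0.80), and the magnesium dechelatases NYE2 (-0.69) and NYE1 (-0.55) and the oxygenase PAO (-0.39) fell by less. Without wild type replicate 1, wild type replicate 2 or knockout replicate 3, 2 of these 4 falls were past the threshold. The I-box, GATAAG on either strand, is known from light-regulated promoters. Over all genes it was present before 17% of those that rose, 13.5% of those that fell and 12.1% of those not past the threshold. Of the 15 tested chlorophyll synthesis genes 1 held it (6.67%), and of the 18 antenna genes 4 did (22.2%).

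Anthocyanin genes fell, with the deepest falls at the activator PAP2 and the late steps. PAP2 (AT1G66390), a MYB activator of anthocyanin synthesis, was at 5.57, 6.06 and 3.82 TPM in wild type and 0, 0.178 and 0 TPM in the knockout (log2 fold change -2.52, SE 0.21, adjusted p = 3.1e-06), so it was listed at 0 in 2 of the 3 knockout libraries. Its relative PAP1 (AT1G56650) fell from 66.1, 107 and 52.6 to 36.4, 52.4 and 26.1 TPM (-0.95), where the highest knockout library came within 1 TPM of the lowest wild type library. The late enzymes LDOX, DFR, UGT75C1, UF3GT and the transferase TT19 fell by 1.62 to 1.87 on the log2 scale. CHS, the first enzyme, was at 84.0, 60.7 and 77.8 and 63.6, 41.9 and 72.6 TPM and not past the threshold, and the next, the isomerase TT5, fell by less than the late ones (-0.78). In the list of 17 tested genes 9 fell and 1 rose, the bHLH factor TT8 (0.56), which lost its call in 12 of the 16 alternatives.

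Jasmonate genes fell in part. Of 25 tested, 8 fell and 1 rose. CORI3, a cystine lyase induced by jasmonate, stood at 234, 228 and 145 TPM in wild type and 12.4, 13.8 and 13.8 TPM in the knockout (log2 fold change -3.80, SE 0.18, adjusted p = 2.3e-08), and the vegetative storage protein gene VSP1 at 778, 868 and 578 TPM in wild type and 112, 137 and 122 TPM in the knockout (log2 fold change -2.56, SE 0.14, adjusted p = 1.0e-07). Both had knockout values within a narrow range, far under wild type. The biosynthesis genes LOX3 (-0.99), LOX2 (-0.69) and AOS (-0.68) and the repressor genes JAZ10 (-1.12) and JAZ1 (-0.58) fell by less. In the Napin line CORI3 (-2.75), VSP1 (-1.51) and VSP2 (-1.15) were lower too, against the same wild type libraries. On the deposited scale, 12 of the 25 tested jasmonate genes were lower in that line, beside 3871 of all 16555 genes tested. Of all genes tested, 278 were higher there.

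Genes of glucosinolate breakdown changed in both directions, with 2 rises and 4 falls among 9 tested genes. The other 3, ESP, PEN2 and MVP1, were not past the threshold. The myrosinases TGG1 and TGG2, which cleave glucosinolates, rose, with TGG1 at 48.7, 46.6 and 63.6 TPM in wild type and 202, 141 and 175 TPM in the knockout (log2 fold change 1.69, SE 0.16, adjusted p = 1.2e-05). The specifier proteins that steer the product to nitriles fell, among them NSP2 from 192, 228 and 147 to 47.7, 78.1 and 28.4 TPM (-1.95), NSP1 (-1.33) and the abundant NSP5, from 3858, 4105 and 2808 to 1882, 2524 and 1807 TPM (-0.79). ESM1, known to alter this outcome, fell as well (-1.48). In synthesis, MYB51 (0.97), CYP83B1 (0.86), MYB29 (0.80) and CYP79B2 (0.74) rose out of 13 tested, with 2 left after median-ratio scaling and 2 without wild type replicate 1, wild type replicate 3, knockout replicate 1 or knockout replicate 2. The importer GTR2, which loads glucosinolates into seeds, fell (-0.90). Of the TGG1 and TGG2 pair, 1 was past the threshold without wild type replicate 1, wild type replicate 2, knockout replicate 1 or knockout replicate 3.

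**Figure D4:**
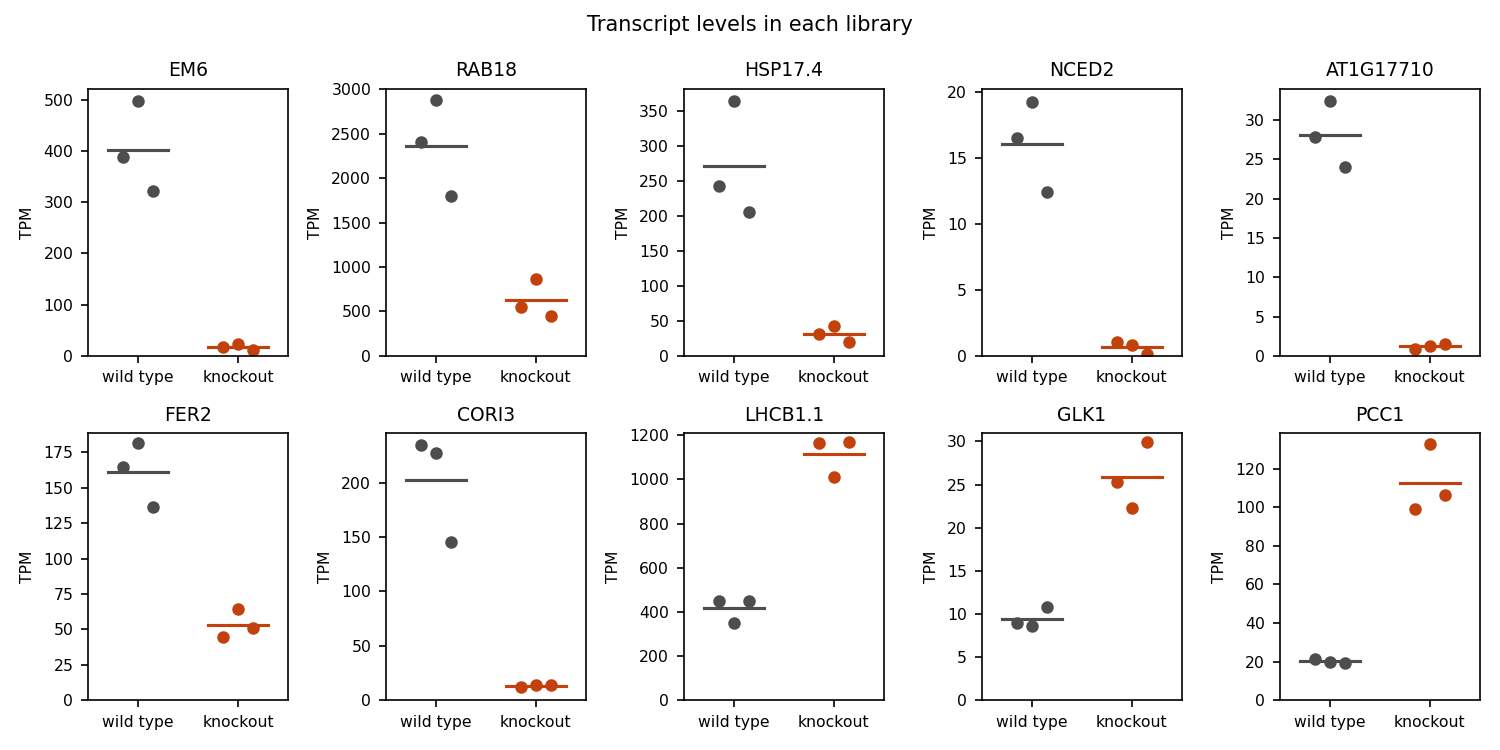
TPM of 10 genes in each of the 3 wild type and 3 knockout libraries (points; line, mean of 3; each axis starts at 0). EM6, RAB18, HSP17.4, NCED2, AT1G17710, FER2 and CORI3 were lower in all knockout libraries, and LHCB1.1, GLK1 and PCC1 were higher in all of them.

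Genes of salicylic acid defence rose. Of 22 tested, 13 rose and 1 fell, with a median of 0.79, and leaving out 1 library kept 9 to 13 of the rises, with 9 when knockout replicate 1 was omitted. The fall was lost without wild type replicate 2. PCC1, a small protein gene of this response, stood at 21.4, 19.6 and 19.2 TPM in wild type and 98.8, 133 and 106 TPM in the knockout (log2 fold change 2.42, SE 0.13, adjusted p = 9.9e-08). LURP1 went from 34.6, 53.2 and 31.1 to 107, 141 and 97.8 TPM (1.54) and the transcription factor WRKY70 from 19.8, 31.6 and 23.5 to 54.8, 64.9 and 51.6 TPM (1.18). None of these 3 overlapped between the groups. The lipase-like regulators PAD4 (1.33) and EDS1 (0.84), the activators SARD1 (0.98) and CBP60G (0.75) and the glucanase PR2 (0.91) rose. ALD1, an enzyme of the defence signal pipecolic acid, fell (-0.83). The synthesis gene ICS1, at 5.02, 5.86 and 4.06 TPM in wild type and 4.41, 5.56 and 5.05 in the knockout, and PR1, at 32.5, 64.9 and 31.2 and 37.0, 47.2 and 34.4, were not past the threshold.

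Families of defence-related genes, taken from the gene descriptions, held more rises than falls, as did all genes tested (9.18% higher, 6.31% lower). Of 46 tested WRKY factors 12 rose (26.09%) and 2 fell (4.348%). Of 146 receptor-like kinases 28 rose (19.18%) and 1 fell (0.6849%), or 17 rose and 3 fell after median-ratio scaling. Leaving out wild type replicate 1 gave 8 WRKY and 15 kinase rises, and 15 kinase rises were also found without knockout replicate 1 and 17 with wild type replicate 3 left out. Both WRKY falls were lost when wild type replicate 2 or knockout replicate 3 was omitted. WRKY38 went from 0.857, 0.751 and 0.275 to 5.14, 7.10 and 4.44 TPM (2.01) and WRKY62 from 1.25, 1.30 and 0.715 to 6.34, 8.02 and 4.04 TPM (1.74). SOBIR1, a co-receptor of immune receptors, rose from 70.6, 84.0 and 60.1 to 170.2, 202 and 159 TPM (log2 fold change 1.30, SE 0.14, adjusted p = 2.9e-05). The lectin gene AT5G03350 rose from 3.36, 3.49 and 4.75 to 31.9, 47.4 and 35.0 TPM (3.00), and ECS1, a cell wall protein gene, from 314, 335 and 261 to 699.7, 1084 and 930.2 TPM (1.56). Of 24 tested thionin and defensin genes 13 rose (54.17%) and 3 fell (12.5%), or 10 rose after median-ratio scaling and 2 with a filter at 5 TPM. The other 258 of 282 in this family were below the level filter, which a rise in the knockout helps a gene to pass. The seed defensin PDF1.1 fell from 151, 189 and 129 to 16.04, 27.8 and 19.0 TPM (-2.86). Of 8 tested touch, cold and wounding genes 6 rose, among them the zinc finger gene ZAT12 (1.37), the wall enzyme TCH4 (1.14) and the calmodulin-like genes TCH3 (1.06) and TCH2 (0.81).

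Clock genes split, with some morning genes among the rises and some evening genes among the falls. CCA1 and LHY, which peak in the morning, rose (0.87 and 0.87), as did RVE1 (0.80), CDF3 (0.74) and LNK2 (0.46). Of 22 tested, 9 fell, namely ELF4, GRP7, FKF1, BOA, LUX, GRP8, TOC1, GI and PRR5, by 0.52 to 1.58 on the log2 scale. The other 8, RVE8, PRR9, PRR7, LNK1, CDF1, CDF2, ELF3 and ZTL, were not past the threshold. GRP7, an RNA-binding protein that cycles with an evening peak, stood at 589, 664 and 562 TPM in wild type and 245, 320.2 and 211 TPM in the knockout (log2 fold change -1.24, SE 0.15, adjusted p = 8.5e-05). TOC1, an evening repressor of CCA1, stood at 16.99, 20.2 and 18.5 TPM in wild type and 10.1, 11.8 and 8.99 TPM in the knockout (log2 fold change -0.79, SE 0.13, adjusted p = 9.9e-04). Neither overlapped between the groups. The 5 rises were less steady than the falls, with 2 left when wild type replicate 1, wild type replicate 3 or knockout replicate 1 was omitted and 3 when knockout replicate 2 was. The labels give the photoperiod but no hour of collection, so a difference in hour between the genotypes was not tested.

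The evening element, AAAATATCT on either strand, was present before 7 of the 22 tested clock genes (31.8%), against 2.36% of protein-coding genes. All 7 were among the 9 that fell, and none was among the 5 that rose or the 8 not past the threshold. Over all genes it was present before 4.26% of those that fell, 2.92% of those that rose and 2.49% of those not past the threshold. For changes of 2-fold or more the order was the other way, with 2.64% of falls and 4.46% of rises, against 2.64% of all genes tested. The promoters of GRP7, with 3 matches, and TOC1, with 1, are shown with the matches in capitals.
GRP7 (chr2:9266558-9266807, minus strand): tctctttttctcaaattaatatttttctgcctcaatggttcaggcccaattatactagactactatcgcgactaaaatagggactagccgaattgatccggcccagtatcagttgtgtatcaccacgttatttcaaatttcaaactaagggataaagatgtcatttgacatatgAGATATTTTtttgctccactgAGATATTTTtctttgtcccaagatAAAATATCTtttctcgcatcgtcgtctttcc
TOC1 (chr5:24674713-24674962, plus strand): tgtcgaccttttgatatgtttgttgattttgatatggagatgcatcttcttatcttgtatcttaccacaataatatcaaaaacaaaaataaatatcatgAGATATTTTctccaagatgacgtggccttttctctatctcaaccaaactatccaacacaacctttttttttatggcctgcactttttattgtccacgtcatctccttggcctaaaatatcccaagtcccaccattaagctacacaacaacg

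**Figure D5:**
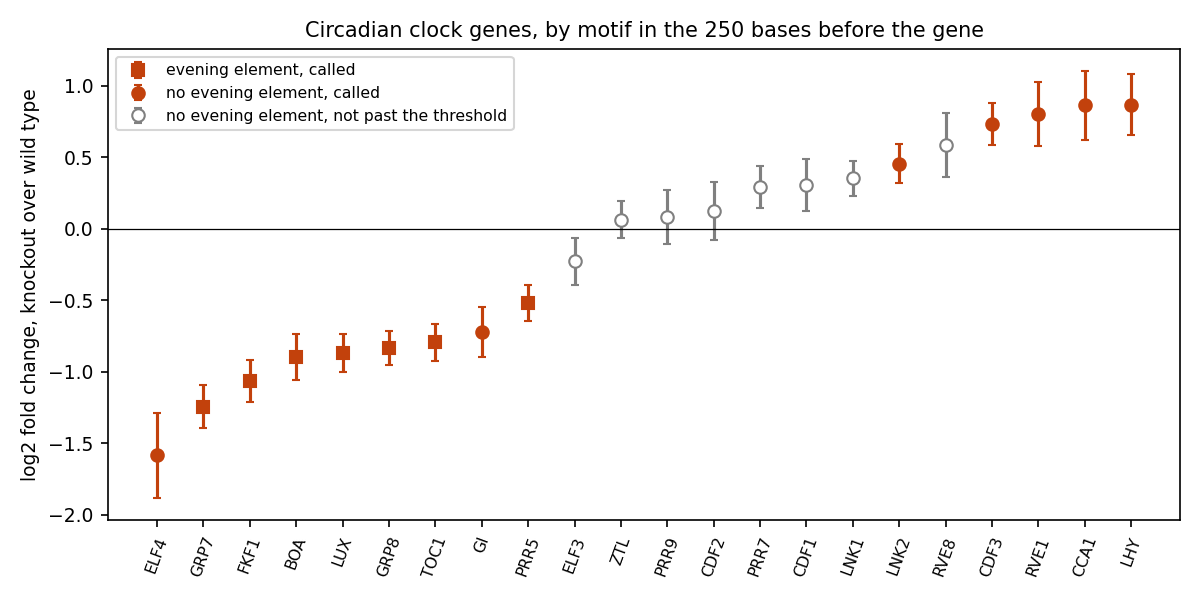
Log2 fold change with its SE of 22 circadian clock genes in rank order. Squares mark genes with the evening element in the 250 bases before their start and circles those without; filled symbols were past the threshold. All 7 squares lie below 0, and the 5 rises are circles.

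Some genes of growth and division rose. Of 13 tested expansins, proteins that loosen cell walls, 3 rose, EXPA10 from 24.0, 20.6 and 25.3 to 85.3, 60.8 and 85.8 TPM (1.68), EXPA1 (1.14) and EXPA5 (1.04), and EXLB1 fell (-1.18). The cell plate syntaxin KNOLLE stood at 6.36, 1.71 and 8.21 TPM in wild type and 23.6, 12.9 and 31.6 TPM in the knockout (log2 fold change 1.97, SE 0.38, adjusted p = 0.0027), and the mitotic kinases CDKB2;1 (1.62) and AUR1 (0.72) rose. Only 4 of 12 cell cycle genes had a mean of 1 TPM or more over the 9 libraries and were tested. A rise in the knockout helps a gene to pass this filter. Summed over the 12 genes, the mean level was 12.98 TPM in wild type and 43.1 TPM in the knockout. Wild type replicate 2 was the lowest library for KNOLLE, and AUR1 lost its call in 12 of the alternatives. Of 20 tested gibberellin genes 7 rose, among them GASA1 (1.18) and the synthesis genes GA20OX2 (0.77) and KAO2 (0.69), and the receptor GID1B fell (-0.96). Without wild type replicate 2 or without knockout replicate 1, 2 gibberellin genes rose, and 4 rose without wild type replicate 1, without knockout replicate 3 or after median-ratio scaling. Of 26 fatty acid and oil genes 8 rose and 2 fell, the desaturase FAD3 (-0.51) and the sucrose synthase SUS3 (-1.39), but 1 rise was left after median-ratio scaling and 1 without wild type replicate 1, wild type replicate 2, knockout replicate 1 or knockout replicate 3.

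Some transport and starvation genes fell. Of 39 tested UMAMIT amino acid exporters 9 fell (23.08%) and 1 rose (2.564%), beside 6.31% lower and 9.18% higher over all genes. When wild type replicate 1 or 2 was omitted, 6 falls were left. UMAMIT18 went from 135, 149 and 109 to 55.4, 76.6 and 44.8 TPM (-1.16). The asparagine synthetase ASN1, a marker of low carbon, fell from 24.8, 27.7 and 20.4 to 7.86, 7.58 and 5.01 TPM (log2 fold change -1.71, SE 0.17, adjusted p = 1.3e-05). The nitrate transporter NRT2.7, known from seeds, fell (-1.40), with knockout replicate 3 well under the others. In the senescence list of 15, the NAC factors ANAC019 (-1.44), ORE1 (-0.95) and ANAC055 (-0.73) fell, and WRKY53 (1.20) and SEN1 (0.68) rose. With 5 falls, that list had more after median-ratio scaling, without wild type replicate 3 or without knockout replicate 2. Among class III peroxidases 2 had deep falls, PER59 from 8.57, 12.1 and 9.09 to 0.0750, 0.273 and 0 TPM (-3.29) and PER25 from 20.1, 24.8 and 14.7 to 1.93, 1.98 and 2.22 TPM (-2.75), out of 29 tested with 7 lower and 2 higher.

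Over the transcription factor families, listed members included, 81 of 495 tested rose and 36 fell, beside 9.18% higher and 6.31% lower over all genes. Of the ERF factors, 3 with large falls were RAP2-6 from 8.04, 11.5 and 7.60 to 0.212, 0.387 and 0.977 TPM (-2.73), RAP2-9 (-2.33), and ERF113 from 38.5, 54.0 and 34.1 to 6.66, 12.5 and 7.00 TPM (-2.18). ERF013 rose from 2.50, 2.85 and 2.01 to 10.4, 14.99 and 9.47 TPM (1.85), and the NAC factor anac036 from 2.58, 4.41 and 2.35 to 10.3, 11.6 and 10.4 TPM (1.55). ATDR4, a Kunitz inhibitor family gene that drought represses, fell from 102, 107 and 86.0 to 10.6, 13.1 and 5.91 TPM (log2 fold change -3.24, SE 0.23, adjusted p = 6.4e-07).

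The genes of 4 unknown proteins on chromosome 1 were among the 12 largest rises in TPM. AT1G62070 stood at 406, 285 and 470.1 TPM in wild type and 1176, 819.8 and 1542 TPM in the knockout (log2 fold change 1.59, SE 0.22, adjusted p = 2.0e-04), and AT1G62060 (1.21), AT1G62333 (1.19) and AT1G62225 (0.98) rose with it. The 2 largest falls in TPM were those of a ribosomal RNA gene, AT2G01020, from 2078, 4032 and 5216 to 469, 287 and 1099 TPM (-2.73), and AT2G05580, from 4544, 4496 and 3792 to 2344, 2437 and 1726 TPM (-0.99). Of 292 tested genes under 1 TPM in wild type, which passed the level filter through other libraries and so had to be higher there, 108 rose. AT5G51105, of unknown function, stood at 1.60, 0.700 and 0.641 TPM in wild type and 39.2, 39.7 and 76.9 TPM in the knockout (log2 fold change 4.70, SE 0.30, adjusted p = 3.6e-07). It lies wholly within AT5G51110 on the opposite strand, which was at 26.4, 22.4 and 30.3 TPM in wild type and 31.9, 32.5 and 40.2 in the knockout, so reads of the pair cannot be told apart without strand. A group of 12 genes was listed at 0 in all wild type libraries and at 1 TPM or more in all knockout libraries, such as VQ13 at 2.22, 2.81 and 5.35 TPM and ASK17 at 2.13, 3.69 and 9.67 TPM, the highest value of each in knockout replicate 3. Conversely, 5 were listed at 0 in all knockout libraries and at 1 TPM or more in all wild type libraries, led by the pectin lyase-like gene AT2G43880 at 8.75, 7.62 and 10.8 TPM in wild type.

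Markers of single tissues were read beside these changes, and their part in them was not tested. Of 5 embryo markers LEC1 rose and the other 4, among them CRA1, OLEO1 and ABI3, were not past the threshold. Of 4 tested endosperm markers SUC5 rose (1.36), and EPR1 stood at 6246, 4003 and 3751 TPM in wild type and 3076.0, 3012 and 3028 TPM in the knockout, not past the threshold. DELTA-VPE, a seed coat protease, rose from 20.6, 12.7 and 25.1 to 73.2, 52.9 and 59.9 TPM (log2 fold change 1.66, SE 0.21, adjusted p = 1.3e-04), and the seed coat laccase TT10 was at 164, 144 and 152 and 189.8, 218 and 167 TPM, also not past it. In the silique wall SHP1 fell (-1.33) and IND rose (0.56), while the other 3 markers, among them FUL and ADPG1, were not past the threshold. Summed over each list, embryo markers ranged from 69799 to 78514 TPM in wild type and from 58477 to 71287 TPM in the knockout, and silique wall markers from 654 to 1030.5 and from 459.6 to 704 TPM, with overlap in both. Endosperm markers did not overlap, at 3761 to 6257 TPM in wild type and 3030.2 to 3093 TPM in the knockout, most of it EPR1, and seed coat markers were higher in the knockout, at 158 to 188 and 230.5 to 274 TPM. The phloem marker SUC2 fell (-0.52), as did the pollen-family gene AT1G29140 (-1.93), and the root marker IRT1 was listed at 0 in every library.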

How the data were processed

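Polyadenylated RNA of siliques from 3 wild type, 3 scl15 knockout and 3 Napin line samples was sequenced from TruSeq libraries, per the labels' protocols. The authors deposited 1 table with TPM values per gene and library, each column summing to 1000000, and TAIR 10 is the build that the submitters' processing notes name. Not given in the sources used here are the aligner, the counter and whether strand was used. TPM keep no depth, so no counting interval could be given.

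Genes whose mean over the 9 libraries reached 1 TPM were tested with limma 3.58.1 in R 4.3.3 on log2(TPM + 1), in 1 fit with 6 residual degrees of freedom, an abundance trend and Benjamini-Hochberg adjustment over all 16555 genes tested. All adjusted p-values here are from limma. The labels call the samples biological replicates without naming separate plants, so the spread behind a p-value is that among these samples and may be technical. Tables and figures were made with Python 3.11.15, pandas 2.3.3, scipy 1.17.1 and matplotlib 3.10.9, and the fit was tested on simulated data.

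The 40 gene lists (585 genes, of which some have several roles) and 36 families by gene description were written with earlier results of these data known, so list counts are descriptions and no list was tested as a set. Of 596 list memberships 72 were below the level filter. Named genes were taken from, but do not cover, the 5 neighbours on either side of SCL15, the 15 largest folds above 10 TPM, the 12 largest TPM differences and the 8 largest transcription factor folds in each direction, the changed list members, and up to 3 changed members per family and direction. Genes not past the threshold were named for their level or role, and the genes listed at 0 were chosen after their values were seen. In the deposited table, 97.7% of gene IDs matched the TAIR10.1 annotation, which gave coordinates and promoter sequence, from 250 bases before a gene's start. The table itself has no coordinates. A set of 16 alternatives was tried.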

Additional observations from a re-analysis of the deposited data

How the results depend on the processing

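The count of changed genes was 2282 to 2493 under the other scalings, pseudocounts and fits without a filter or trend, 2121 with a filter at 5 TPM and 2577 in a fit of the 6 libraries. Higher genes numbered 991 with median-ratio scaling, and genes higher by 2-fold to 221 with a filter at 5 TPM. Leaving out 1 library gave 1700 to 2624 changed genes, 875 to 1575 higher ones and 769 to 1049 lower ones, with the lowest count of higher genes without knockout replicate 1, then 896 without wild type replicate 1 and 1010 without knockout replicate 3. SCL15 stayed between -0.98 and -1.26. The cause of these shifts was not tested. The main fit did not pair samples by replicate number, and whether the numbers mark a pairing is not known. Deviations of same-numbered samples correlated at -0.0605, 0.35 and 0.266, and those of differently numbered samples at -0.393 to 0.113. The fit with the replicate block gave 3442 changed genes (2136 higher, 1306 lower) and -1.10 for SCL15.

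Of 204 changed genes named, 54 were not past the threshold in at least 1 alternative: ABI2, AHG3, ALD1, AT3G02480, AUR1, CAT1, CBP60G, CCA1, CWINV2, CYP79B2, DOG1, DOGL3, ECP63, FUS3, GA20OX2, GBF1, GI, HSD5, ICL, IND, IVD, JAZ1, KAO2, L1L, LEA14, LEA4-1, LHY, LNK2, LOX2, MYB29, MYB96, NCED3, NF-YC2, NIR1, NPC5, NRT1.1, NYE2, OLEO4, P5CS1, PAO, PAP1, PER1, PRR5, PYL7, RVE1, SARD1, SPX2, SQD1, SUC2, TGG2, TIP1;2, TIP3;2, TT8 and WRI1. The block fit lost none of the calls. Among genes not past the threshold, 4 changed sign. ICS1 went to -0.0716 with median-ratio scaling, -0.0862 with quantile normalization and -0.0249 without ribosomal RNA and organelle genes, and M17 to -0.0779, -0.0298 and -0.0204 in the same order. ABI3 went to -0.0162 with median-ratio scaling. Leaving out 1 library gave -0.1016 to 0.1177 for ICS1, -0.0946 to 0.1448 for M17, -0.0086 to 0.1454 for ABI3 and -0.2262 to 0.2900 for PR1. The labels give no depth and the table none, so values near 1 TPM may rest on few reads.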

Other observations

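The lists not described above held few calls, and their shares stand against 9.18% higher and 6.31% lower over all genes. Of 11 oil breakdown genes 2 fell (18.18%), the glyoxylate cycle genes MLS (-0.62) and ICL (-0.50), and 1 was left without wild type replicate 1, wild type replicate 2 or knockout replicate 3. Of 8 raffinose and galactinol genes, DIN10 rose (0.82) and SIP2 fell (-0.62). Of 10 seed protein processing genes, DELTA-VPE rose and the vacuolar processing enzyme gene BETA-VPE fell (-0.55). Of 13 amino acid and starvation genes, P5CS1 (0.59) and IVD (0.41) rose and ASN1 and GDH2 (-0.86) fell, and both rises were lost without wild type replicate 1, wild type replicate 2 or knockout replicate 1. Of 7 nitrate genes 3 fell (42.86%), NRT2.7, NRT1.1 (-0.54) and NIR1 (-0.44), and 1 was left without wild type replicate 1. Of 11 tested seed loading transporters 4 fell (36.36%), among them the cell wall invertase CWINV2 (-1.04), and SUC5 rose, with 1 fall left without wild type replicate 1 and 2 without knockout replicate 1 or knockout replicate 3. None of 6 tested gene silencing genes was past limma's threshold, and 0 had an unadjusted p under 0.05.

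Among other families, calls in both directions were found, to be read beside 9.18% higher and 6.31% lower over all genes. Of 85 tested UDP-glycosyltransferases, which attach sugars to hormones and flavonoids, 20 fell and 7 rose, with 3 rises left when wild type replicate 1 or knockout replicate 1 was omitted and 4 when knockout replicate 3 was. Of 50 tested type 2C protein phosphatases 7 fell and 2 rose, with AT2G34740 going from 2.56, 4.88 and 3.99 to 0.158, 0.0718 and 0 TPM (-2.13), and 4 of the falls were left when wild type replicate 1 or 2 was omitted. Of 40 tested lipid transfer proteins 13 rose and 4 fell, or 8 and 4 after median-ratio scaling, and 8 of the rises were kept without knockout replicate 1 or knockout replicate 3. Of the 4 falls 2 were kept without wild type replicate 1, 2 or 3 or knockout replicate 1. The 4 ribosomal RNA genes in the table made up 7.23% ± 0.901 of TPM in wild type and 4.98% ± 0.951 in the knockout (SD, n = 3). Rescaling the table without them and the organelle genes gave 1244 rises and 1157 falls.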
